A study of Mus musculus with 6 samples.

Results

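The DEAD and DEAH box helicase genes were followed in the mouse mammary carcinoma line 4T1 after treatment with the kinase inhibitor TKI258. Members were taken by symbol, as every gene whose name begins with Ddx or Dhx and a digit and which had a probe set annotated to it alone, and 51 of 19938 measured genes met this. The treated group was 3 arrays from dishes kept for 16 h in 500 nM TKI258 (dovitinib), a small molecule that blocks several receptor tyrosine kinases, those for FGF and VEGF among them. The other group was 3 arrays from dishes given the vehicle DMSO for the same time. Both groups were cultures of 1 cell line, seeded at 750000 cells per dish and grown for 24 h in medium with 10% serum before the change of medium, and the labels name the arrays biological replicates. The question was which helicase transcripts differed after the inhibitor, and whether those of the nucleolus, the spliceosome and the viral-RNA sensors moved alike.

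DEAD and DEAH box proteins use ATP to unwind short RNA duplexes or to strip proteins from RNA, and they are named after a conserved amino acid motif of the helicase core. In the nucleolus many of them remodel the ribosomal RNA precursor and release small nucleolar RNAs from it. In the spliceosome they drive the successive rearrangements of a splicing cycle. The RIG-I-like receptors bind viral double-stranded RNA in the cytoplasm and start interferon production, and their own genes are induced by interferon.

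Signals are given in log2 units, so that a difference of 1 is a 2-fold difference, and changes are TKI258 minus DMSO. The standard error (SE) of a change comes from a moderated linear model (limma) fitted to all genes together. A gene is called higher or lower at an adjusted p below 0.05 (limma, two-sided, Benjamini-Hochberg over all 19938 genes), with n = 3 arrays per group throughout. Correlations between arrays over all genes were 0.997 to 0.998 within a group and 0.988 to 0.990 between groups. All 6 epithelial markers were well lit, with Krt8 at 11.76 to 11.85 in the TKI258 arrays and 11.86 to 11.997 in the DMSO arrays, and 3 of the 6 were higher and 1 lower after TKI258. In bulk RNA, fewer cells that express a gene and less RNA per cell cannot be told apart.

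Of the 51 helicase genes 20 were lower after TKI258 and 7 were higher, while 24 were not called. Among all genes 12.6% were lower and 14.4% higher. Falls were thus more frequent among the helicases than among all genes, dim ones included, and rises were about as frequent. In either direction 27% of all genes were called. Helicase genes are mostly well lit on these arrays: 46 of the 51 had a mean above 5 log2 units. Among all 11236 genes above that level, 21.2% were lower and 23% higher, against 43.5% and 10.9% of those 46 helicases. Above that level rises were therefore less frequent among the helicases. The groups did not overlap, with TKI258 below DMSO, in 30 helicase genes, against 18.8% of all genes, and with TKI258 above DMSO in 8, against 21.4% of all genes. In either direction 40.2% of all genes had groups apart. The median log2 change was -0.17 over the helicases and 0.01 over all genes. Where the arrays were centred on their medians, the median of all genes moved by -0.11, and 21.6% of all genes were lower and 9.88% higher. The calls over all genes then split into 68.6% lower and 31.4% higher, beside 46.8% and 53.2% without centring. With this centring 29 helicase genes were lower and 5 higher.

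**Figure D1:**
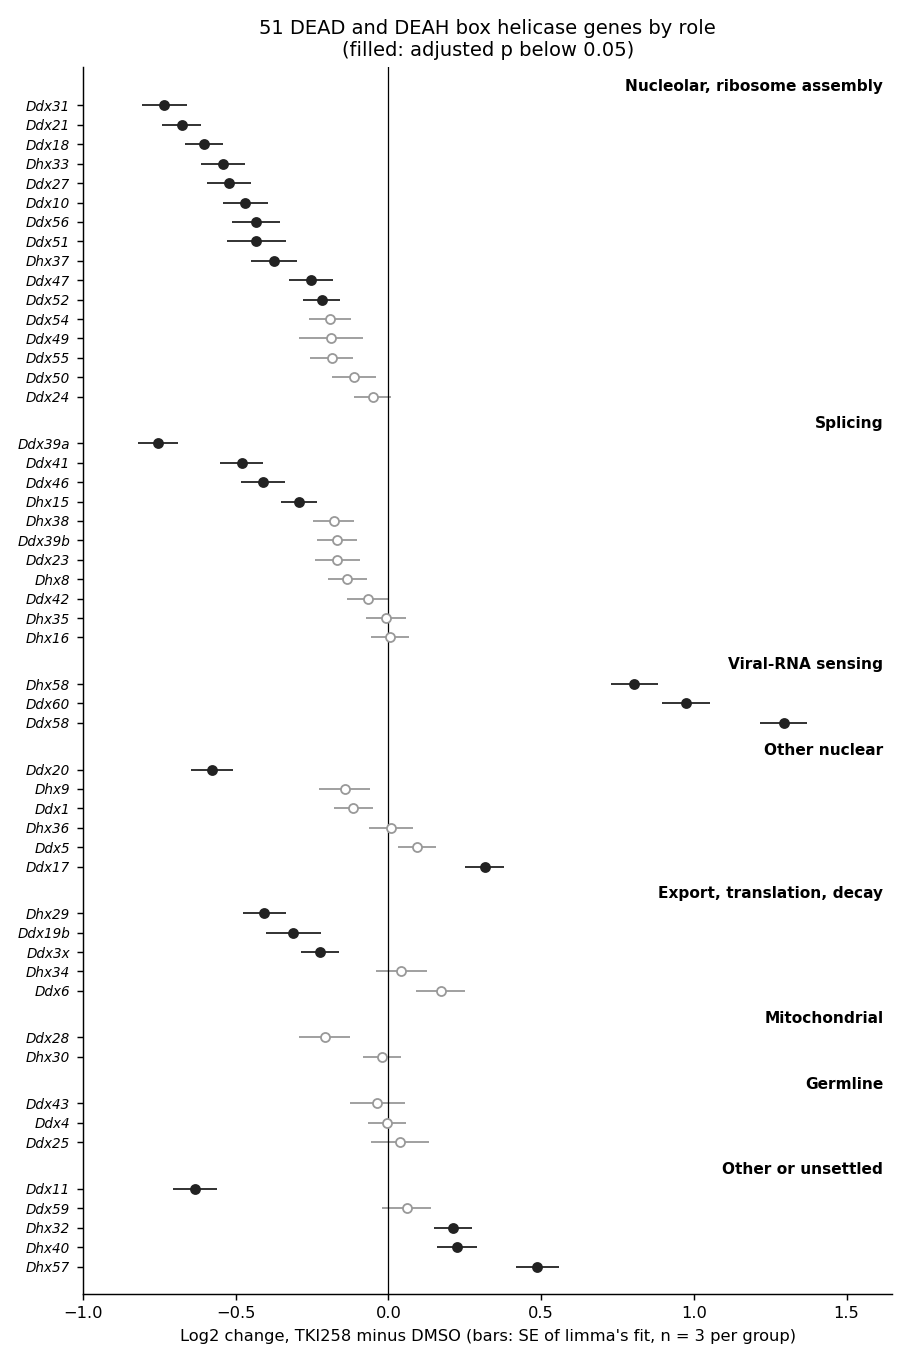
Log2 change (TKI258 minus DMSO, horizontal axis) of each of the 51 helicase genes, grouped by role, with bars for the SE of limma's fit and n = 3 arrays per group. Filled points passed an adjusted p below 0.05: all 16 nucleolar genes lie left of 0 and 11 are filled, the 3 viral-RNA sensing genes lie between 0.80 and 1.29.

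The members were grouped by role. Of 16 nucleolar helicase genes 11 were lower and 0 higher, with a median log2 change of -0.40. Of 11 splicing helicase genes 4 were lower and 0 higher, with a median of -0.17. The sensing class was limited to Ddx58, Ddx60 and Dhx58, and a member with several roles was counted in its listed class only. This class does not stand for every helicase that may sense viral RNA. All 3 of its genes were higher, with a median of 0.97. Averaged over its 16 members, the nucleolar class stood at 8.76, 8.85 and 8.89 log2 units in TKI258 arrays and at 9.21, 9.20 and 9.22 in DMSO arrays. The splicing class stood at 9.14, 9.15 and 9.18 in TKI258 arrays and at 9.40, 9.39 and 9.40 in DMSO arrays. The sensing class stood at 6.19, 6.13 and 6.09 in TKI258 arrays and at 5.12, 5.12 and 5.11 in DMSO arrays. In each class the 2 groups of arrays were apart, and the difference between nucleolar and splicing means was -0.38, -0.31 and -0.28 in TKI258 arrays against -0.20, -0.19 and -0.18 in DMSO arrays. These class means describe lists chosen with earlier results known, and no test was made of them.

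**Figure D2:**
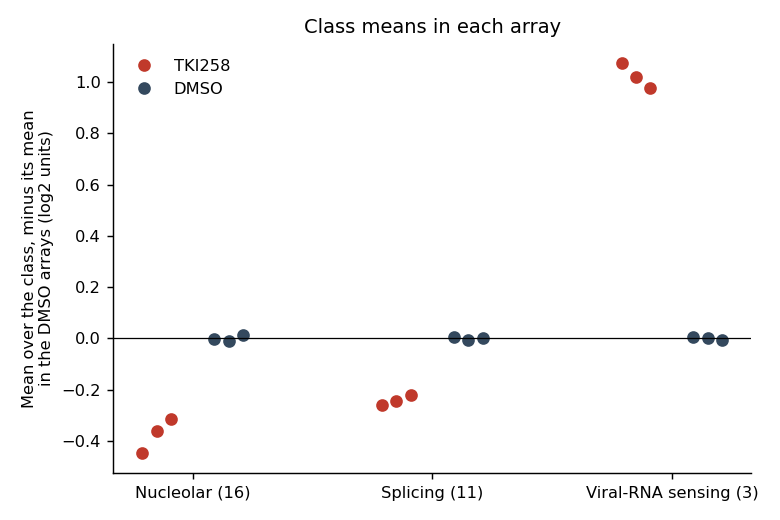
Mean signal of each helicase class in every array, less the class's mean over the DMSO arrays (log2 units), with TKI258 arrays left of DMSO arrays and 1 point per array. The nucleolar and splicing classes lie below 0 in all 3 TKI258 arrays and the sensing class lies about 1 log2 unit above 0.

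The promoters of 4 members are shown as examples of the 3 short elements searched for in every promoter. Promoters were taken from RefSeq (GRCm38.p6), from 250 bases before to 50 bases after the transcription start, and 45 of the 51 helicase genes had one. Dhx58, Ddx39a, Ddx11, Ddx6, Dhx38 and Ddx23 had none in the table used. Those of Ddx58 (chr4:40239776-40240075, minus strand) and Ddx60 (chr8:61927837-61928136, plus strand) are printed 5′ to 3′ with capitals at matches to the core of the interferon-stimulated response element, in which TTTC recurs after any 2 bases. That of Dhx33 (chr11:71004383-71004682, minus strand) has capitals at the E-box CACGTG, which MYC and related factors bind. That of Ddx27 (chr2:167015063-167015362, plus strand) has capitals at CCGGAAG, which ETS factors bind.
Ddx58: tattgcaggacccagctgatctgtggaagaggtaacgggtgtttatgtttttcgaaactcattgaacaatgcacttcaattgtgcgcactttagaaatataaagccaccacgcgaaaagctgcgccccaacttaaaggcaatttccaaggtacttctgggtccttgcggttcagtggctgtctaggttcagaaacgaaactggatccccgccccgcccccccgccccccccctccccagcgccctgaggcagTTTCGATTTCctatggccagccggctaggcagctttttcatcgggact
Ddx60: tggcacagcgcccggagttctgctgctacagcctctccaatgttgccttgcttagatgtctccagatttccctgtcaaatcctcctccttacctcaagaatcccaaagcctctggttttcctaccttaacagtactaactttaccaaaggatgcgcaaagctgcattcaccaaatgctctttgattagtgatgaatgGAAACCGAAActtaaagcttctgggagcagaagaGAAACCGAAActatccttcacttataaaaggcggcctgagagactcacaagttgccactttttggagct
Dhx33: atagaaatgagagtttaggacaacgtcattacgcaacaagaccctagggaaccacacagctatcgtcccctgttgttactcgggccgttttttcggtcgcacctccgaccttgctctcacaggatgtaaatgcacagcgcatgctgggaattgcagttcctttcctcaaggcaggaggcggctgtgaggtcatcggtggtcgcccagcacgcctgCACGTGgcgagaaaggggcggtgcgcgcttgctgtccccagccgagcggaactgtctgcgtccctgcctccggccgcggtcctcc
Ddx27: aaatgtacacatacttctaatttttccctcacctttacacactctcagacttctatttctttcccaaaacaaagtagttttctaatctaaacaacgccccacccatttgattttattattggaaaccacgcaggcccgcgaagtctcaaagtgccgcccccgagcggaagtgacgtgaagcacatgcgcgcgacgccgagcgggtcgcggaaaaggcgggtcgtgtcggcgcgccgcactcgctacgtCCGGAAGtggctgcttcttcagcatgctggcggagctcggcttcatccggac

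The interferon-response core was found in 3 of the 45 helicase promoters, those of Ddx58, Ddx60 and the nucleolar gene Ddx49, against 3.99% of the 27025 genes with a promoter. Ddx60 holds it at 53 and at 19 bases before the start and Ddx58 at 3 bases after it. Ddx49 was not called and had a log2 change of -0.19. CACGTG was found in 7 of the 45 helicase promoters (15.6%), against 8.09% of all genes and 9.5% of measured genes. It occurred in 1 of 16 nucleolar promoters, that of Dhx33, and in 2 of 8 splicing promoters. CCGGAAG was found in 19 of the 45 helicase promoters (42.2%), against 9.93% of all genes and 13.6% of measured genes. It occurred in 8 of 16 nucleolar promoters, in 4 of 8 splicing promoters and in 5 of the 6 of other nuclear helicases. Of those 5, Ddx17 was higher and Ddx1, Ddx5, Dhx9 and Dhx36 were not called. It occurred in 1 of 4 promoters of export, translation and decay helicases and in 1 of 2 mitochondrial ones. It occurred in 0 of 2 sensing promoters, 0 of 3 germline promoters and 0 of 4 promoters of members in no class. Among nucleolar genes it occurred in 4 of the 11 that were lower (Ddx10, Ddx27, Ddx47 and Dhx37) and in 4 of the 5 that were not called (Ddx49, Ddx50, Ddx54 and Ddx55). The promoters of the 3 nucleolar genes that fell most, Ddx31, Ddx21 and Ddx18, held none of these letters. Every motif was searched on both strands, the motifs were chosen with the values known, and a match is a run of letters and not a bound site.

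Nucleolar helicases assemble the ribosomal subunits, and 5 of them fell by at least 0.5 log2 units. Ddx31, which acts in large-subunit assembly, had signals of 7.05, 7.26 and 7.07 in TKI258 arrays against 7.88, 7.83 and 7.87 in DMSO arrays. All TKI258 arrays lay below all DMSO arrays, with a log2 change of -0.73 (SE 0.07, adjusted p = 9.67e-05 in limma), a signal 39.9% lower. Ddx21, which couples RNA polymerase I transcription to processing of its product, had 10.22, 10.29 and 10.29 in TKI258 arrays against 10.96, 10.99 and 10.89 in DMSO arrays. Its groups were also apart, at -0.68 (SE 0.06, adjusted p = 6.68e-05). Ddx18, a large-subunit factor, had 11.06, 11.16 and 11.08 in TKI258 arrays against 11.69, 11.73 and 11.70 in DMSO arrays. The change was -0.61 (SE 0.06, adjusted p = 0.000111), and the fall was seen in each TKI258 array.

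Dhx33, a DEAH box protein that takes part in rRNA transcription, had 7.14, 7.26 and 7.29 in TKI258 arrays against 7.83, 7.79 and 7.69 in DMSO arrays. It fell by 0.54 (SE 0.07, adjusted p = 0.000456), the largest fall of any DEAH-named member. Ddx27, which works with the PeBoW complex on the large subunit, had 8.98, 9.003 and 9.17 in TKI258 arrays against 9.56, 9.56 and 9.59 in DMSO arrays. It fell by 0.52 (SE 0.07, adjusted p = 0.000551), and its DMSO arrays lay closer together than its TKI258 arrays. Falls of at least 0.5 that passed the threshold were made by 4.63% of all genes and by 5 of the 16 nucleolar members.

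**Figure D3:**
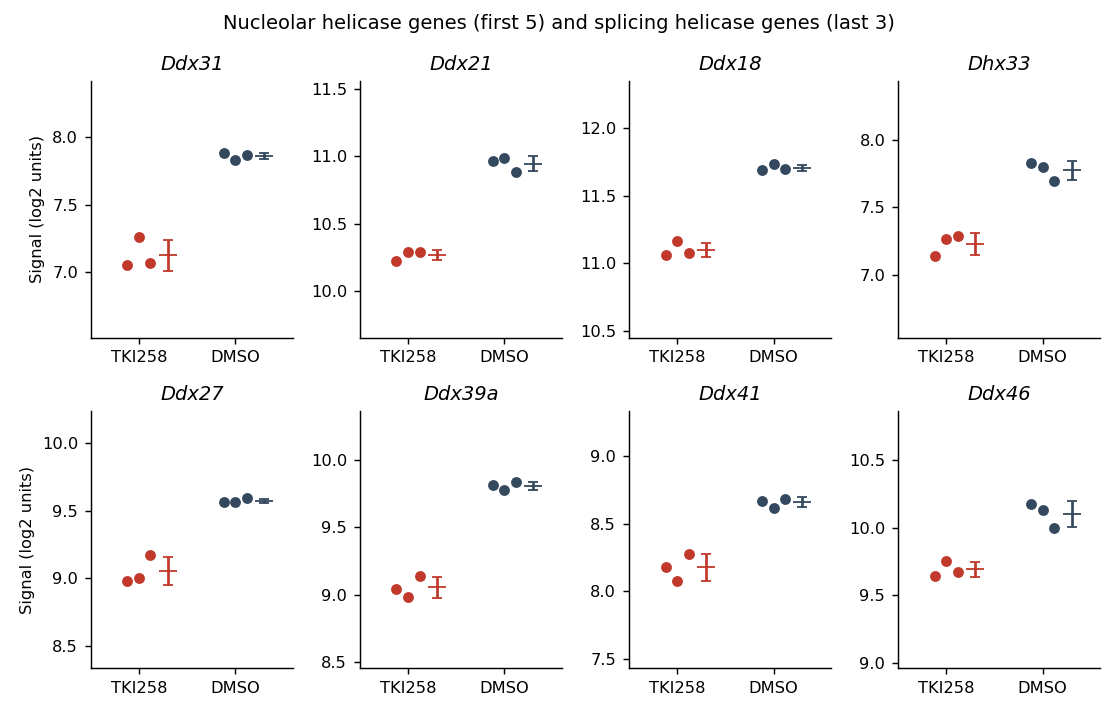
Signals (log2 units) of 5 nucleolar helicase genes and, in the last 3 panels, of 3 splicing helicase genes in each TKI258 array (left) and DMSO array (right), with the mean and SD of n = 3 beside the points. Every panel spans the same range of log2 units, and in every panel the 3 TKI258 arrays lie below the 3 DMSO arrays.

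Smaller falls were found in Ddx10, a small-subunit factor, at -0.47, in the large-subunit factor Ddx56 at -0.43, in Ddx51 at -0.43 and in Dhx37 at -0.38. Ddx51 releases U8 small nucleolar RNA from large-subunit precursors, and Dhx37 releases U3 from those of the small subunit. Their adjusted p lay between 0.00117 and 0.00858 in limma. Ddx47 and Ddx52, both small-subunit factors, fell by 0.25 and 0.22 (adjusted p = 0.0278 and 0.0255). Both calls were lost when any 1 array other than TKI258 replicate 3 was left out, at adjusted p of 0.0562 to 0.101 for Ddx47 and of 0.0620 to 0.0883 for Ddx52 in those 5 fits.

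The 5 nucleolar genes not called were Ddx54 at -0.19, Ddx49 at -0.19, Ddx55 at -0.19, Ddx50 at -0.11 and Ddx24 at -0.05. In 4 of them TKI258 arrays still lay below DMSO arrays, the exception being Ddx49, with 7.51, 7.65 and 7.94 in TKI258 arrays against 7.91, 7.81 and 7.94 in DMSO arrays. Without TKI258 replicate 3, Ddx49 had a change of -0.31 (adjusted p = 0.0223) and Ddx54 one of -0.22 (adjusted p = 0.0494), and both were then called lower. By subunit, 4 of 5 small-subunit members and 5 of 8 large-subunit members were lower, with medians of -0.25 and -0.43. Against a minimum fold of 1.2 (limma's treat) 5 of the 16 nucleolar genes stayed lower.

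Other ribosome assembly factors, among them the proteins of the small nucleolar ribonucleoproteins and of the processome, fell without exception. Of 44 listed 43 were measured, and 43 were lower, with a median of -0.67 and a range of -1.08 to -0.32. Among all genes with a mean above 5 log2 units 21.2% were lower. This list, too, was chosen with earlier results known. The pseudouridine synthase gene Dkc1 (-0.96, SE 0.06, adjusted p = 9.59e-06), the large-subunit factor genes Mrto4 (-0.91) and Nop2 (-0.94) and Rrp1b (-0.97) had the smallest adjusted p.

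Of the 11 splicing helicase genes the 4 that fell were Ddx39a, Ddx41, Ddx46 and Dhx15. Ddx39a, a paralogue of UAP56 that acts in mRNA export and splicing, had 9.04, 8.98 and 9.14 in TKI258 arrays against 9.81, 9.78 and 9.84 in DMSO arrays. At -0.75 (SE 0.07, adjusted p = 4.71e-05 in limma) it fell most of all 51 helicases, with no overlap between the groups. Ddx41, a spliceosome-associated protein also reported as a DNA sensor, fell by 0.48 (SE 0.07, adjusted p = 0.000901). Ddx46, the counterpart of yeast Prp5, which acts when the U2 particle joins the intron, fell by 0.41 (adjusted p = 0.00236). Dhx15, the counterpart of yeast Prp43, takes spent spliceosomes apart and also acts in ribosome assembly, and it fell by 0.29 (adjusted p = 0.00505).

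The other 7 splicing members were not called. Dhx38 had -0.18, Ddx39b (UAP56) -0.17, Ddx23 -0.17 and Dhx8 -0.13, and in these 4 the TKI258 arrays lay below the DMSO arrays. Ddx42, Dhx35 and Dhx16, the last being the counterpart of yeast Prp2, had -0.07, -0.01 and 0.01 with overlapping groups. Among the helicases named for a numbered Prp step in yeast, Dhx16, Ddx23, Dhx38 and Dhx8 were thus not called while Ddx46 and Dhx15 were lower. With the arrays centred on their medians 8 of the 11 splicing genes were lower, against a minimum fold of 1.2 only Ddx39a was, and without TKI258 replicate 3 Ddx23 (-0.23, adjusted p = 0.0319) and Dhx38 (-0.21, adjusted p = 0.0499) were called too.

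Among genes of core spliceosome proteins falls outnumbered rises. Of 46 measured 25 (54.3%) were lower, 1 (2.17%) was higher and 20 were not called, with a median of -0.26 and a range of -0.83 to 0.24. Among all genes with a mean above 5 log2 units 21.2% were lower and 23% higher. The U2 protein gene Snrpa1 (-0.83, SE 0.09, adjusted p = 0.000121), the tri-snRNP genes Prpf4 (-0.56) and Prpf3 (-0.44), and the U5 GTPase gene Eftud2 (-0.42) led by adjusted p. G-patch proteins are cofactors that switch on DEAH helicases such as Dhx15. Of 22 measured 6 (27.3%) were lower and 2 (9.09%) higher, with a median of -0.04. The shares among all genes with a mean above 5 log2 units were 21.2% and 23%. Nkrf (-0.85, adjusted p = 3e-05), Gpatch4 (-0.75), Pinx1 (-0.65) and Rbm17 (-0.41) led these falls. Nkrf and Pinx1 are known from human cells as nucleolar partners of DHX15, and Rbm17 is a splicing factor.

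The 3 helicases of the sensing class rose, and theirs were the 3 largest rises in the family. Ddx58 encodes RIG-I, which recognises RNA with a 5′ triphosphate and signals through its CARD domains to the adaptor Mavs. It had 9.06, 8.92 and 8.88 in TKI258 arrays against 7.75, 7.65 and 7.58 in DMSO arrays. The change was 1.29 (SE 0.08, adjusted p = 5.46e-06 in limma), or 2.45-fold, and the lowest TKI258 array lay above the highest DMSO array. Ddx60, an interferon-induced helicase reported to promote RIG-I-like signalling, had 4.79, 4.56 and 4.56 in TKI258 arrays against 3.65, 3.71 and 3.64 in DMSO arrays. It rose by 0.97 (SE 0.08, adjusted p = 2.93e-05) with groups apart. Dhx58 encodes LGP2, a RIG-I-like receptor with no CARD domain that tunes signalling by the other receptors, and it had 4.70, 4.92 and 4.83 in TKI258 arrays against 3.96, 3.99 and 4.10 in DMSO arrays. It rose by 0.80 (SE 0.08, adjusted p = 7.41e-05), also with groups apart.

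**Figure D4:**
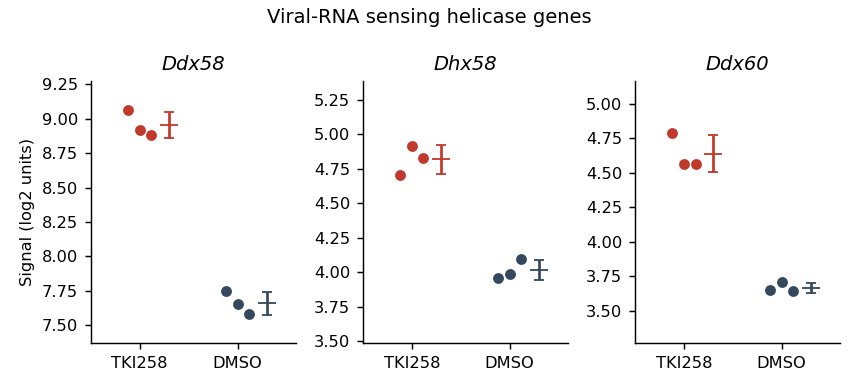
Signals (log2 units) of the 3 viral-RNA sensing helicase genes in each TKI258 array (left) and DMSO array (right), with the mean and SD of n = 3 beside the points. In all 3 panels every TKI258 array lies above every DMSO array, and Dhx58 and Ddx60 lie below 5 log2 units in both groups.

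Rises of at least 0.8 that passed the threshold were made by 2.44% of all genes. Ddx60 and Dhx58 were dim in both groups, and among the 8702 genes with a mean at or below 5 log2 units 3.29% were called higher. Uty, a Y-chromosome gene that this line, derived from a female mouse, should lack, was called at 0.29 with signals of 2.85 to 3.01 in TKI258 arrays against 2.61 to 2.65 in DMSO arrays. The changes of Ddx60 and Dhx58 were larger than that of Uty. Their signals, of 3.64 to 4.92, also lay above those of Uty, so Uty does not gauge the noise at their level. The other 2 Y-linked genes measured were not called.

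Ifih1, the remaining RIG-I-like receptor gene, which encodes MDA5 and whose name lies outside the symbol rule, had 6.97, 6.89 and 6.80 in TKI258 arrays against 5.82, 5.81 and 5.76 in DMSO arrays. It rose by 1.09 (SE 0.07, adjusted p = 7.11e-06). Mavs, the mitochondrial adaptor of RIG-I and MDA5, had a change of 0.20 and was not called (adjusted p = 0.113). Of 25 measured genes of the RIG-I-like pathway and its interferon response, 16 (64%) were higher and 0 lower, with a median of 0.40. Among all genes 14.4% were higher and 12.6% lower. The 9 not called included Mavs, Tbk1 (0.11), Ikbke (0.22) and Irf3 (-0.12). The interferon gene Ifnb1 was not called either, at 0.02, and was dim, with a mean of 3.23 log2 units over the arrays. The interferon signalling gene Stat2 rose by 1.03, Oasl2 by 1.18 and the endosomal double-stranded RNA receptor gene Tlr3 by 0.88. Of the 22 with a promoter in the table, 6 held the interferon-response core, among them Ifih1 and Stat2.

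Immune cells carry these sensors too, so their markers are given beside them. Of 7 leukocyte markers measured, 6 had a mean below 5 log2 units, and the pan-leukocyte gene Ptprc lay at 3.68 to 3.84 in TKI258 arrays and at 3.72 to 3.81 in DMSO arrays. Cd68, a macrophage marker that other cells with many lysosomes also express, was the 1 called, at 0.82. The summed signal of the 7 on the linear scale ran from 231 to 312 in TKI258 arrays and from 192 to 194 in DMSO arrays, and the part of such cells in the rise of the sensors was not tested. Of 4 fibroblast markers Dcn and Pdgfra were higher, at 2.01 and 1.499, with summed signals of 1046 to 1110 in TKI258 arrays against 434 to 463 in DMSO arrays, and their part was not tested either. Of 3 endothelial markers 0 were called in limma, and 0 had an unadjusted p below 0.05.

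Outside these classes, Ddx20 and Ddx11 fell most. Ddx20 encodes Gemin3, the helicase of the SMN complex that loads Sm proteins onto spliceosomal RNAs. It had 8.59, 8.64 and 8.74 in TKI258 arrays against 9.20, 9.29 and 9.22 in DMSO arrays, and it fell by 0.58 (SE 0.07, adjusted p = 0.000245 in limma) with groups apart. Of 12 genes of the SMN and tRNA ligase complexes 7 (58.3%) were lower and 0 higher, with a median of -0.36. Among all genes with a mean above 5 log2 units 21.2% were lower and 23% higher. Gemin6 fell by 0.98, Gemin5 by 0.78, Smn1 by 0.61 and Fam98a by 0.61. Of the listed tRNA ligase genes only Fam98a was lower, while Fam98b (-0.18), Zbtb8os (0.11) and Rtcb (0.004) were not called. Ddx1, the helicase of that complex, had -0.11 and was not called. Gemin7 and Gemin8 of the SMN complex were not called either.

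Ddx11 is a DNA helicase of the XPD type that acts in sister chromatid cohesion, and it is a member here by its symbol. It had 7.97, 7.90 and 8.08 in TKI258 arrays against 8.60, 8.68 and 8.57 in DMSO arrays. It fell by 0.63 (SE 0.07, adjusted p = 0.00018 in limma), and no TKI258 array reached the lowest DMSO array.

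Among helicases of export, translation and decay, Dhx29, which helps ribosomes scan structured leaders, fell by 0.41 (adjusted p = 0.00218 in limma). The mRNA export helicase Ddx19b fell by 0.31 (adjusted p = 0.0308) and the translation helicase Ddx3x by 0.22 (adjusted p = 0.0231). The call of Ddx19b was lost in 3 of the 6 fits that left out 1 array (replicate 1 of either group, or TKI258 replicate 2), at adjusted p of 0.0804 to 0.1001. That of Ddx3x was lost in 3 such fits (replicate 1 of either group, or DMSO replicate 2), at 0.0517 to 0.0948, and with renewed quantile normalization, at 0.0730. Ddx6, the P-body helicase of mRNA decapping, and Dhx34, a factor of nonsense-mediated decay, had 0.17 and 0.04 and were not called. Among their partner genes falls outnumbered rises, with 9 of 28 lower (32.1%) and 2 higher (7.14%), and a median of -0.11. The shares among all genes with a mean above 5 log2 units were 21.2% and 23%. Of the partner genes Pdcd4, which inhibits the helicase eIF4A, rose by 1.89 (SE 0.08, adjusted p = 1.19e-06). The cap-binding gene Eif4e, the export receptor gene Nxf1 and Alyref fell by 0.40, 0.38 and 0.38. The eIF4A genes are DEAD box helicases that the symbol rule leaves out: Eif4a3, of the exon junction complex, fell by 0.51 (adjusted p = 0.00768), while Eif4a1 and Eif4a2 had -0.12 and -0.08 and were not called.

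Across a list of 18 measured RNA helicases with other names, 4 were lower and 4 higher (22.2% each), with a median of -0.05. Among all genes with a mean above 5 log2 units 21.2% were lower and 23% higher, so these counts were close to the background. The list also holds Tdrd9, which had a mean of 4.17 and was not called. Mov10, a helicase linked to antiviral defence and silencing, rose by 0.99 (SE 0.09, adjusted p = 4.82e-05) and the nuclear exosome helicase Mtrex fell by 0.34. Ifih1 and Eif4a3, given above, belong to this list as well.

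The rises outside the sensing class were smaller. Dhx57, whose role is not settled, rose by 0.49 (SE 0.07, adjusted p = 0.000745 in limma), with 8.80, 8.79 and 8.67 in TKI258 arrays against 8.31, 8.30 and 8.18 in DMSO arrays. Ddx17 (p72), a co-regulator of transcription and microRNA processing, rose by 0.31 (SE 0.06, adjusted p = 0.00517). Dhx40 and Dhx32 rose by 0.22 and 0.21 (adjusted p = 0.029 and 0.0329). The call of Dhx40 was lost without TKI258 replicate 1 or any 1 DMSO array, at adjusted p of 0.0512 to 0.115. That of Dhx32 was lost without replicate 1 or 2 of either group, at 0.0695 to 0.129, and with the replicate number as a block, at 0.0550. With the arrays centred on their medians the changes were 0.12 for Dhx40 and 0.10 for Dhx32 and neither was called.

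By name, 16 of 35 Ddx genes were lower and 3 higher, with a median of -0.19. Of 16 Dhx genes 4 were lower and 4 higher (25% each), with a median of -0.01. Those Dhx shares were near the 21.2% and 23% of all genes with a mean above 5 log2 units, though Dhx58, among those higher, had a mean of 4.42. That difference between the names was not tested.

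Close paralogues were compared within each array. Ddx21 and Ddx50 lie on chromosome 10 and encode the related nucleolar helicases Gu-alpha and Gu-beta. Ddx21 less Ddx50 was 0.81, 0.72 and 0.68 in TKI258 arrays against 1.34, 1.35 and 1.21 in DMSO arrays, a difference of -0.56 between their changes. Ddx39a less Ddx39b was -1.56, -1.64 and -1.37 in TKI258 arrays against -0.90, -0.96 and -0.96 in DMSO arrays, a difference of -0.58 between their changes. Ddx5 less Ddx17 was 0.93, 1.01 and 1.01 in TKI258 arrays against 1.18, 1.18 and 1.25 in DMSO arrays, a difference of -0.22. That difference rests on the brightest Ddx5 probe set, with a change of 0.09. The second Ddx5 probe set had 0.19, nearer to the 0.31 of Ddx17, and the pair was not compared with it. In all 3 pairs the 2 groups of arrays were apart. The exact permutation test over arrays (two-sided) gave p = 0.1 in each, the smallest that 3 arrays against 3 allow, so no pair could pass 0.05, and adjustment over the 3 pairs left 0.1.

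**Figure D5:**
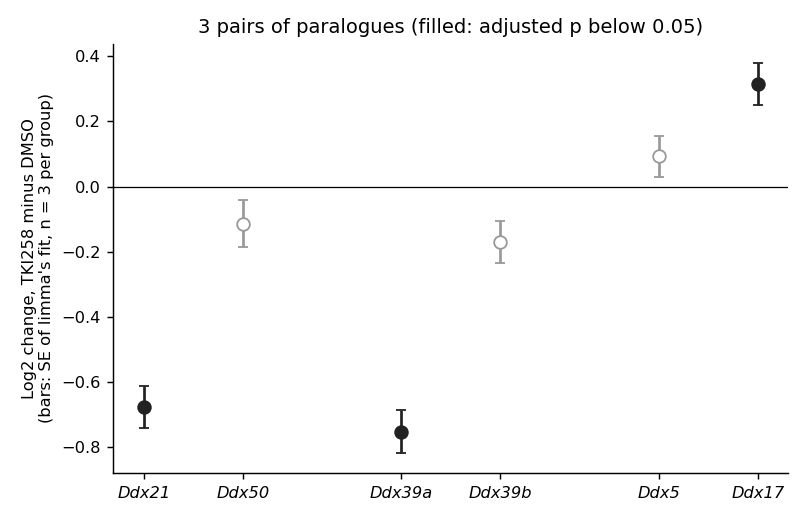
Log2 change (TKI258 minus DMSO) of the genes of 3 paralogue pairs, with bars for the SE of limma's fit, n = 3 arrays per group, and filled points for an adjusted p below 0.05. Ddx21 and Ddx39a lie at -0.68 and -0.75 with their paralogues Ddx50 and Ddx39b at -0.11 and -0.17. Ddx17 lies at 0.31 with Ddx5, shown by its brightest probe set only, at 0.09.

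The remaining members were not called. Ddx5 (p68), the brightest probe set of the family, had 11.66, 11.71 and 11.75 in TKI258 arrays against 11.58, 11.65 and 11.60 in DMSO arrays, with a change of 0.09 that was not called (adjusted p = 0.345 in limma) although the groups were just apart. Its second probe set, tested singly, was called higher at 0.19 (adjusted p = 0.0447). Dhx9 and Dhx36, an RNA helicase of many nuclear complexes and a helicase of G-quadruplexes, had -0.14 and 0.01. The mitochondrial ribosome assembly helicases Ddx28 and Dhx30 had -0.21 and -0.02, and Ddx59 had 0.06, all without a call. Ddx28 was called lower in 4 alternatives, with -0.32 (adjusted p = 0.0191) after the arrays were centred on their medians. The germ-cell genes Ddx4, Ddx25 and Ddx43 lay at 2.58 to 2.99 log2 units in all 6 arrays, among the dimmest 6.42% of genes. Ddx4 (Vasa), the dimmest member, had 2.67, 2.73 and 2.79 in TKI258 arrays against 2.73, 2.73 and 2.74 in DMSO arrays, which overlap. Ddx19a and Ddx3y, whose symbols also begin in this way, were not analysed here.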

How the data were processed

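The authors deposited 1 log2 signal for each of 35557 probe sets on every array. Per the submitters' processing notes the tools were RMA, affy and limma, with no version or role stated, and the log2 scale was inferred from the range of the values and the array medians of 4.97 to 5.04. RMA sets all arrays to a common distribution, which can hide a shift shared by all genes and shrinks changes of dim probe sets. No detection calls were used, and precision is limited by having 3 arrays per group.

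Probe sets were named by the platform annotation of 2016, and 21789 had 1 symbol. The brightest probe set over the 6 arrays stood for each gene. Of the 51 helicase genes 4 had a further probe set, and 0 probe sets with several symbols listed a helicase. The contrast of TKI258 with DMSO was fitted with limma 3.58.1 (R 4.3.3; lmFit, eBayes, treatment as the only term). The members, their roles and the partner lists were chosen with earlier results of these data known, so lists were counted and not tested. Every member could be named, with values per array for called changes of at least 0.5, the sensing genes and the brightest and dimmest members, and from each partner list the 4 genes with the smallest adjusted p, and Ifih1, Mavs, Eif4a1, Eif4a2 and Eif4a3 whatever their values. Values per array of Dhx57 and Ddx49 and the range of Uty were added after they were seen. So were the values of Tbk1, Ikbke, Irf3, Ifnb1 and Tdrd9. The fit was tested on simulated data with 19938 genes. It recovered 8 of 50 changes of 0.25, 47 of 50 of 0.5 and 50 of 50 of 1, with 6 false calls among 161. The data themselves gave 5385 calls. The adjustment was thus stricter in the simulation, and these recoveries are not those of the real comparison. Alternatives were the replicate block, each array left out, a filter on means above 5, centring on array medians, quantile normalization done again, other uses of probe sets, other variance estimates, array weights, an adjusted p of 0.01 and a minimum fold of 1.2.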

Additional observations from a re-analysis of the deposited data

Results flagged for a closer look

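Second probe sets of helicase genes, which the comparisons above leave out, also differed between TKI258 and DMSO when every probe set was tested singly in limma, a signal in data not otherwise used. The second probe set of Ddx18 had a log2 change of -0.57 (adjusted p = 0.000158), beside -0.61 in the one used. That of Ddx3x had -0.25 (adjusted p = 0.0256), beside -0.22. That of Ddx5 had 0.19 (adjusted p = 0.0447) and was called higher, with 11.65, 11.61 and 11.63 in TKI258 arrays against 11.41, 11.46 and 11.46 in DMSO arrays, whereas the one used had 0.09 (adjusted p = 0.337 in the same test). The call for Ddx5 therefore depends on which probe set stands for it. The second probe set of Ddx54 had -0.08 (adjusted p = 0.477) and was not called.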

How the results depend on the processing

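Of the 27 called helicase genes 11 were called under each of the 17 alternatives that tested them, 16 lost the call under at least 1 and 0 turned sign; 6 lost it when 1 array was left out. Of the uncalled helicase genes 11 were called under at least 1 alternative. Leaving out 1 array gave 16 to 24 lower and 5 to 7 higher helicases, 9 to 13 lower nucleolar, 4 to 6 lower splicing and 3 higher sensing genes. In those fits 10.2% to 13% of all genes were lower and 11.5% to 13.6% higher. Against a minimum fold of 1.2 the counts were 8 lower and 3 higher helicases, 5 lower nucleolar and 1 lower splicing gene. Of all genes, dim ones included, 4.33% were lower and 5.3% higher against that fold, so the rises of helicases were about as frequent as among all genes. With arrays centred on their medians 8 splicing helicases were lower. In that setting 0 spliceosome and 0 G-patch genes were higher, 2 RIG-I-like pathway genes were lower, 16 export and decay genes were lower and 1 higher, and 8 other helicases were lower and 2 higher. With quantile normalization done again 2 spliceosome genes and 2 other helicases were higher and 1 RIG-I-like pathway gene was lower. Among genes with a mean above 5 only 1 sensing gene, Ddx58, was tested and called, since Dhx58 and Ddx60 are dimmer, and 2 spliceosome and 4 G-patch genes were higher. Leaving out 1 array gave 0 to 1 higher spliceosome, 0 to 3 higher G-patch and 1 to 2 higher export genes, and 2 to 4 lower and 2 to 5 higher other helicases. The cause of these moves was not tested.

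Uncalled genes whose sign turned were Dhx34 (-0.070) and Ddx59 (-0.013) after quantile normalization, Ddx25 (-0.0087) with array weights, and after centring Ddx25 (-0.069), Ddx5 (-0.014), Ddx59 (-0.048), Dhx16 (-0.10), Dhx34 (-0.064) and Dhx36 (-0.10). Leaving out 1 array gave Ddx25 -0.0061 to 0.12, Ddx43 -0.13 to 0.027, Dhx16 -0.011 to 0.040, Dhx36 -0.029 to 0.053, Dhx34 -0.013 to 0.11, Dhx30 -0.046 to 0.0073, Dhx35 -0.038 to 0.019, Ddx4 -0.035 to 0.027 and Ddx59 -0.0029 to 0.10.

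The replicate numbers were not taken to pair the arrays: deviations of same-numbered arrays correlated at 0.02, 0.05 and 0.15, not all above 0.1. TKI258 replicates 2 and 3 correlated best with their own number, and TKI258 replicate 1 with DMSO replicate 2 (0.07). With the replicate block 20 helicases were lower and 6 higher, beside 2487 lower and 2877 higher genes in all.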
